A study of Mus musculus with 6 samples.

Results

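The genes of receptors for glutamate, GABA, glycine and nicotinic acetylcholine, with the genes that make GABA and load glutamate, GABA and glycine into vesicles, were examined in bulk RNA-seq of the mouse pituitary gland. Membership was set by gene symbol, and the group was taken up with earlier results of these data known. The table of read counts holds 74 such genes among 16736 rows. The 6 libraries came from male mice, 3 labelled RD and 3 labelled HFD, and before collection every mouse had fasted for 16 h and then had food again for 4 h. Both are diet labels that the sources used here do not spell out, which also give no strain, age, time on the diet or pooling of glands. Replicates are not stated to be separate animals, and p-values then reflect only how far these libraries differ, which may be in part technical.

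Glutamate opens 3 kinds of ion channel, named AMPA, kainate and NMDA receptors after the drugs that act on them, and also acts on metabotropic receptors that signal through G proteins. GABA and glycine open chloride channels, and GABA has in addition the G protein-coupled GABA-B receptor. Nicotinic receptors are cation channels opened by acetylcholine. All the ion channels are assembled from several subunits, so that the subunits a cell transcribes set which channels it can build. In the pituitary these receptors are known from hormone cells as well as from the nerve endings and glia of the neural lobe.

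Of the 74 genes, 61 had enough counts to be tested and 12 of these (19.7%) passed an adjusted p of 0.05 in edgeR's quasi-likelihood test across all genes, against 10.5% of all 13873 tested genes. Genes past this threshold are referred to as called. There were 9 higher in HFD (14.8% of those tested, against 5.87% of all genes) and 3 lower (4.92% against 4.61%). A change of at least 2-fold was called for 3 of them, 4.92% against 1.90% of all tested genes. The median log2 change, given throughout as HFD over RD, was 0.14 among the 61 genes and -0.002 among all tested genes, and the median size without regard to sign was 0.35 and 0.16. For 22 of the 61 genes RD and HFD levels were without overlap (36.1%), close to the 32.5% of all tested genes. Because the genes were chosen in this way, the shares describe them and are no test of the set.

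By receptor family the calls were uneven. Ionotropic glutamate receptors had 6 higher and 0 lower among 17 tested genes, and metabotropic glutamate receptors 1 higher among 6. GABA and glycine receptors had 1 higher and 1 lower among 22, nicotinic receptors 0 higher and 2 lower among 11, and the genes of transmitter synthesis and vesicle loading 1 higher among 5. The calls of SLC17A8, GRM2, GRIA1 and CHRNA6 held in all 16 other settings tried. Those of the other 8 genes were lost when single libraries were left out, with the direction kept. The loss was of 8 calls without HFD replicate 2 or without HFD replicate 3, 7 without RD replicate 2, 6 without HFD replicate 1 and 1 without RD replicate 3.

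**Figure D1:**
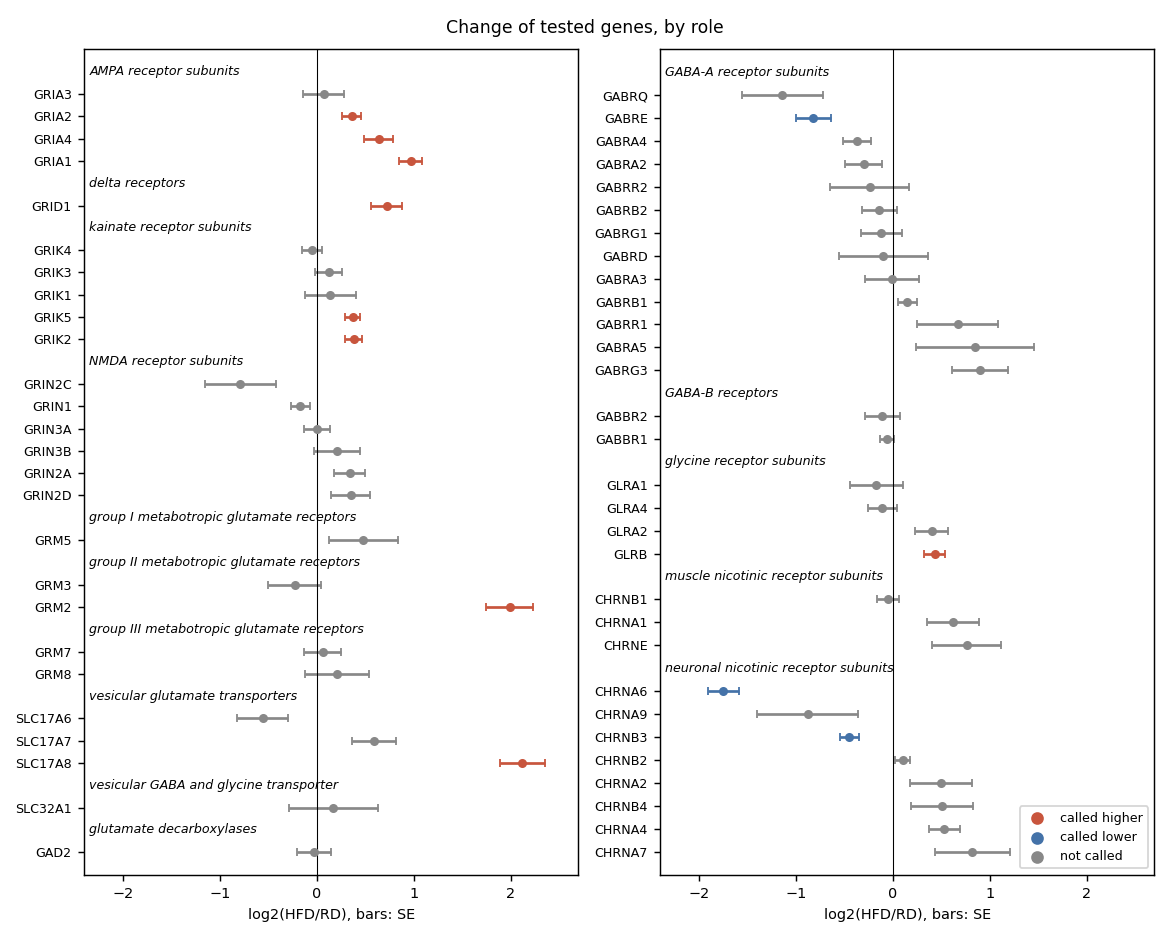
Log2 change (HFD over RD) of 56 tested genes, grouped by role, with bars of 1 standard error from edgeR's quasi-likelihood fit to 3 RD and 3 HFD libraries. Red and blue points passed an adjusted p of 0.05, and SLC17A8, GRM2 and CHRNA6 lie farthest from 0 among them.

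Library totals over the listed genes ran from 14185372 to 18111345 counts, and 3 counts corresponded to between 0.166 and 0.211 CPM (counts scaled to a common library total). The examined genes together took between 0.183% and 0.237% of the counts. The hormone genes GH1, PRL and POMC, which define the anterior and intermediate lobes, were abundant in all libraries. Transcripts of the neural lobe hormones were at low level, oxytocin (OXT) at 1.53 to 6.06 CPM and vasopressin (AVP) at 0.651 to 1.49 CPM. Markers of pituicytes, the glia of that lobe, and of astroglia summed over 8 genes to 254 to 353 CPM in RD and 177 to 297 CPM in HFD. Levels below are CPM scaled by TMM factors. Levels of different genes are compared only after division by the merged exon length of the gene, as CPM per kb.

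Per kb of exon, abundant transcripts in RD included those of the kainate receptor subunit GRIK5 at 30.6, the nicotinic subunit CHRNA6 at 29.9, the kainate subunit GRIK3 at 23.9 and the obligatory NMDA subunit GRIN1 at 18.3 CPM per kb. In HFD they included GRIK5 at 39.4, GRIK3 at 26.0, GRIA1 at 20.3 and GRIA4 at 19.5 CPM per kb, and CHRNA6 stood at 8.87. Metabotropic receptor genes were much rarer in both groups, none above 1.55 CPM per kb.

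**Figure D2:**
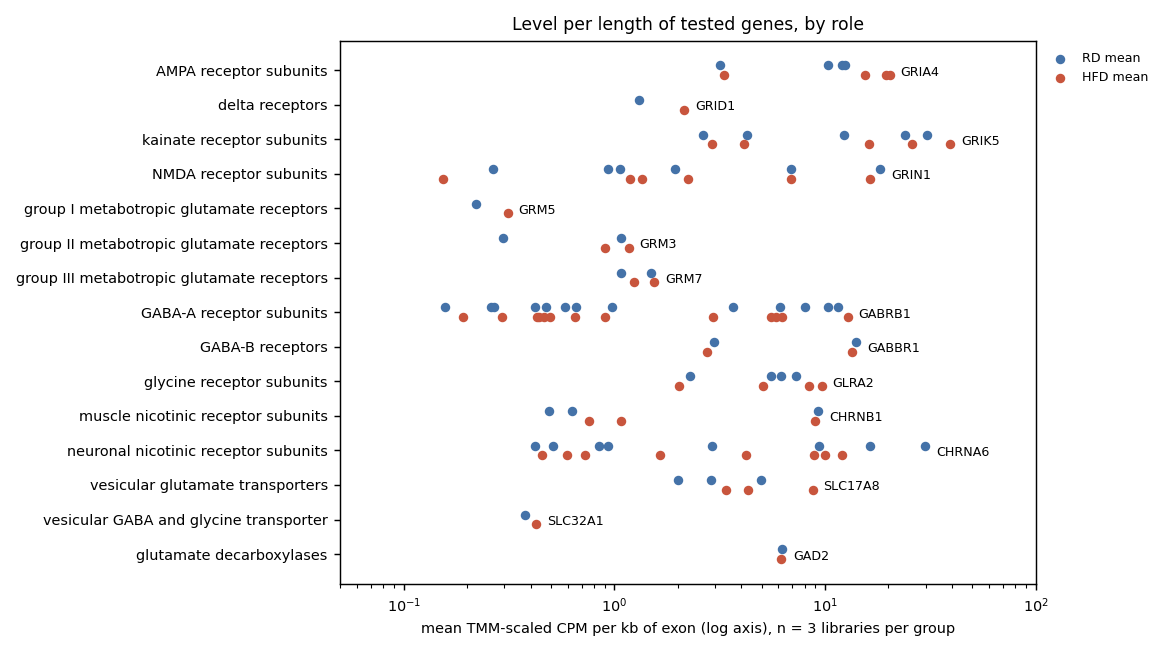
Mean level of 56 tested genes in CPM per kb of exon (log axis, 3 libraries per group), by role. The most abundant plotted gene of each class over both groups is named, and the CHRNA6 point of RD at 29.9 has no HFD counterpart in its class above 12 (CHRNB3).

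Of the 4 AMPA receptor subunit genes, 3 rose and the summed level of the class went from between 234 and 335 CPM in RD to between 421 and 423 CPM in HFD. AMPA receptors carry fast excitatory signals, and the GRIA2 subunit is the one that, once its RNA is edited, keeps calcium out of the channel. GRIA1 was at 67.6, 64.1 and 48.0 CPM in RD replicates 1, 2 and 3 and at 126, 115 and 112 CPM in the HFD replicates. The lowest HFD library was thus well above the highest RD library. The log2 change was 0.97 ± 0.12 (SE), a 1.96-fold rise (adjusted p = 0.00191). In bulk tissue, more cells of a type and more RNA per cell cannot be told apart, here or for any gene below.

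GRIA4 was at 102, 72.2 and 62.5 CPM in the RD libraries and 123, 118 and 129 CPM in HFD, with RD replicate 1 nearest to the HFD level. Its log2 change was 0.64 ± 0.15 (adjusted p = 0.0256). GRIA2 had the smallest of the 3 rises, from 145, 127 and 109 CPM to 159, 165 and 163 CPM, with a log2 change of 0.36 ± 0.10 (adjusted p = 0.0418). GRIA3 was not called, at 17.3 ± 3.47 CPM in RD against 18.1 ± 4.98 CPM in HFD (SD, n = 3 each), and the 95% interval of its log2 change reached from -0.40 to 0.54. The calls of GRIA4 and GRIA2 were lost without RD replicate 2 and on leaving out any HFD library (adjusted p up to 0.112 for GRIA4 and 0.141 for GRIA2).

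The make-up of the class shifted as well. As a share of all AMPA subunit transcripts per kb, GRIA1 held 25.7%, 29.5% and 26.4% in the RD libraries and 37.1%, 33.9% and 32.8% in the HFD libraries. GRIA2 held 31.9% ± 1.47 in RD against 26.4% ± 0.541 in HFD (SD, n = 3 each), and GRIA4 about the same in both (32.5% and 33.3%). For GRIA1, GRIA2 and GRIA3 the libraries of one group lay all above those of the other, which in a two-sided exact permutation test of 3 against 3 gives p = 0.1, the smallest this design allows.

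**Figure D3:**
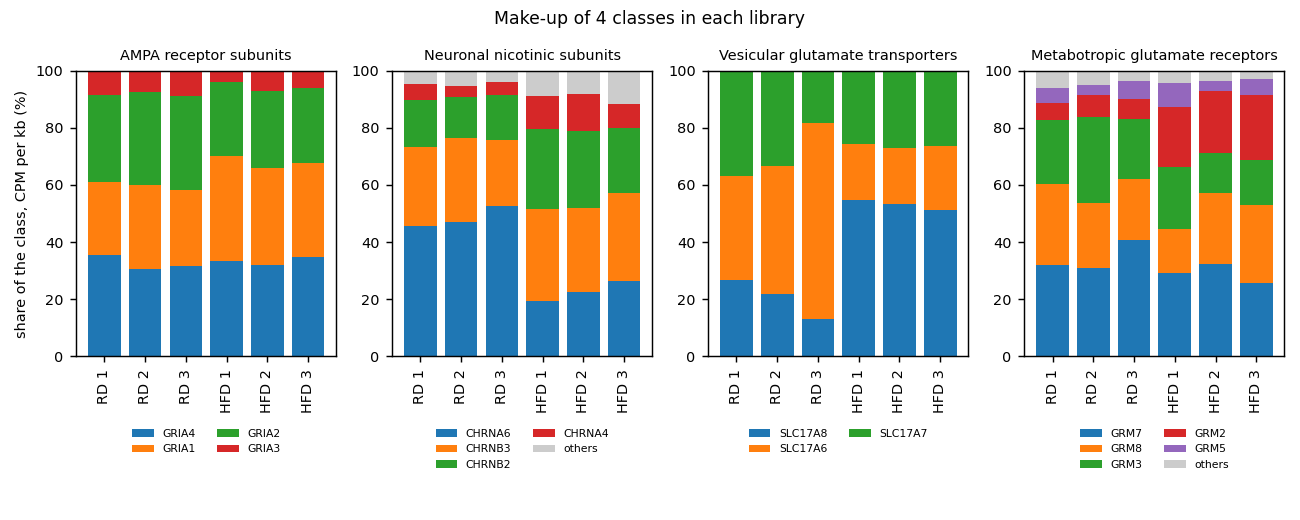
Share of each gene in the summed CPM per kb of its class, for AMPA receptor subunits, neuronal nicotinic subunits, vesicular glutamate transporters and metabotropic glutamate receptors. Each bar is 1 library. GRIA1, SLC17A8 and GRM2 take a larger share and CHRNA6 a smaller share in each HFD library than in any RD library.

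Delta receptors belong to the same channel family but bind cerebellins, secreted bridging proteins, rather than glutamate. GRID1 rose from 8.57, 7.10 and 6.76 CPM in RD to 10.9, 13 and 12.9 CPM in HFD, a log2 change of 0.72 ± 0.16 (adjusted p = 0.0204). The call was lost on leaving out RD replicate 2 and also on leaving out HFD replicate 2 or 3 (adjusted p up to 0.0949).

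Among the 5 kainate receptor subunit genes 2 rose. GRIK2, which can form channels by itself, was at 143, 124 and 118 CPM in the RD libraries and 180, 160 and 161 CPM in HFD (log2 change 0.38 ± 0.09, adjusted p = 0.0226). GRIK5, a high-affinity subunit that needs a partner such as GRIK2, went from 126, 115 and 104 CPM to 155, 140 and 150 CPM (0.37 ± 0.08, adjusted p = 0.0216). Both rises were close to 1.3-fold, at 1.30-fold for GRIK2 and 1.29-fold for GRIK5, and in both genes the lowest HFD value lay above the highest RD value. GRIK3, which per kb was below GRIK5 in both groups, was at 258, 203 and 184 CPM in the RD libraries and 195, 266 and 238 CPM in HFD. Its groups overlapped and it was not called (0.12 ± 0.14, 95% interval -0.19 to 0.42). GRIK4 was at 25.4 ± 0.979 and 24.5 ± 0.855 CPM, with an interval from -0.27 to 0.16, and GRIK1 varied too widely to say (-0.44 to 0.72). GRIK2 and GRIK5 were not called without RD replicate 2 or any 1 HFD library (adjusted p up to 0.0943).

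No NMDA receptor subunit gene was called among 6 tested, by edgeR or in any of the 16 other settings, and none had an unadjusted p under 0.05. NMDA receptors need GRIN1 together with GRIN2 or GRIN3 subunits. GRIN1 was at 79.8, 81.0 and 79.5 CPM in the RD libraries and 65.5, 65.2 and 83.5 CPM in HFD, where replicate 3 differed from the other two. The 95% interval of its log2 change ran from -0.39 to 0.06. An antisense gene, Grin1os, covers 29.9% of the GRIN1 exons, and without strand-aware counting the reads of both cannot be told apart. Of the partner subunits, GRIN3A was the most abundant per kb, at 6.88 in RD and 6.90 CPM per kb in HFD, followed by GRIN3B (1.93 and 2.24) and GRIN2D (1.06 and 1.35). GRIN2A stood at 0.932 and 1.18 CPM per kb. GRIN2B had at most 9 counts in a library and was not tested.

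GRM2 was the one metabotropic glutamate receptor gene called. It encodes a group II receptor, coupled to inhibition of adenylyl cyclase. The counts were low but separate: 24, 22 and 22 counts in the RD libraries and 67, 83 and 93 in the HFD libraries. Scaled, this was 1.47, 1.43 and 1.27 CPM in RD and 4.65, 5.64 and 6.29 CPM in HFD, a log2 change of 1.99 ± 0.24 (adjusted p = 0.00188). Its share of all metabotropic receptor transcripts per kb was 6.87% ± 0.910 in RD against 21.8% ± 0.866 in HFD (SD, n = 3 each; exact permutation p = 0.1, the smallest possible). The antisense gene Gm28111 covers 9.51% of the GRM2 exons. The other group II gene, GRM3, was at 3.67, 3.71 and 2.37 CPM in the RD libraries and 3.12, 2.31 and 2.84 CPM in HFD, a difference that was not called (-0.23 ± 0.27).

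The gene lies on the minus strand of chromosome 9 (GENCODE M21 on mm10, 106643095 to 106656082). Of its nearest neighbours in the table, TEX264, 2663 bases away, was not called, at 26.8 ± 1.98 and 25.9 ± 3.03 CPM (adjusted p = 0.832), and IQCF6, 15419 bases away on the other side, had 2 counts in all and was not tested. The sequence upstream of the start site is shown for GRM2 and for SLC17A8, the genes with the largest rises here. Both stretches are from RefSeq on GRCm38.p6, read 5′ to 3′ on the minus strand, with 250 bases for GRM2 (chr9:106656110-106656359) and 246 for SLC17A8 (chr10:89621254-89621499). Capitals mark matches to the letters GGGCGG on either strand.
GRM2: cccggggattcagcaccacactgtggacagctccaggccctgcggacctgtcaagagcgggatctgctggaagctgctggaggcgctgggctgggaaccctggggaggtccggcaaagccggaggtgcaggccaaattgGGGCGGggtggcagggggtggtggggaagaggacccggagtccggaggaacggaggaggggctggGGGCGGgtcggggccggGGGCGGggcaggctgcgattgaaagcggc
SLC17A8: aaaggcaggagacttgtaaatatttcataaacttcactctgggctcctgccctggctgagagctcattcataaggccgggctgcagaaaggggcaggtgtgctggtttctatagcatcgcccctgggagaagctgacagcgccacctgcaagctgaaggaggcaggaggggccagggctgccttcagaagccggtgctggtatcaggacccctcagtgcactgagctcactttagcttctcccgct
The GRM2 stretch holds 3 GGGCGG matches, starting 111, 46 and 29 bases before the RefSeq start site, and the SLC17A8 stretch holds none. Of 32851 RefSeq promoter stretches of 250 bases, 32.7% hold at least 1. Further motifs were searched on both strands, namely the cAMP response element TGACGTCA, the nuclear receptor core motif AGGTCA, the E-box CACGTG, the EGR motif GCGTGGGCG, the heat shock element core GAANNTTC and the TATA box TATAAA. These are in neither stretch, and are in between 0.536% and 14% of all the stretches. Such matches describe the letters only.

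The other metabotropic genes were not called. Of group I, whose receptors act through phospholipase C, GRM5 was at 2.39, 1.17 and 1.85 CPM in the RD libraries and 3.19, 1.63 and 2.77 CPM in HFD (0.48 ± 0.36). Of group III, GRM7 was at 7.34, 5.34 and 6.47 CPM in the RD libraries and 5.90, 7.61 and 6.49 CPM in HFD (0.06 ± 0.19), and GRM8 at 4.15 ± 1.46 and 4.79 ± 1.74 CPM. GRM4 had too few counts for the test, with 17, 9 and 10 counts in RD and 2, 4 and 5 in HFD. GRM6 had at most 3.

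**Figure D4:**
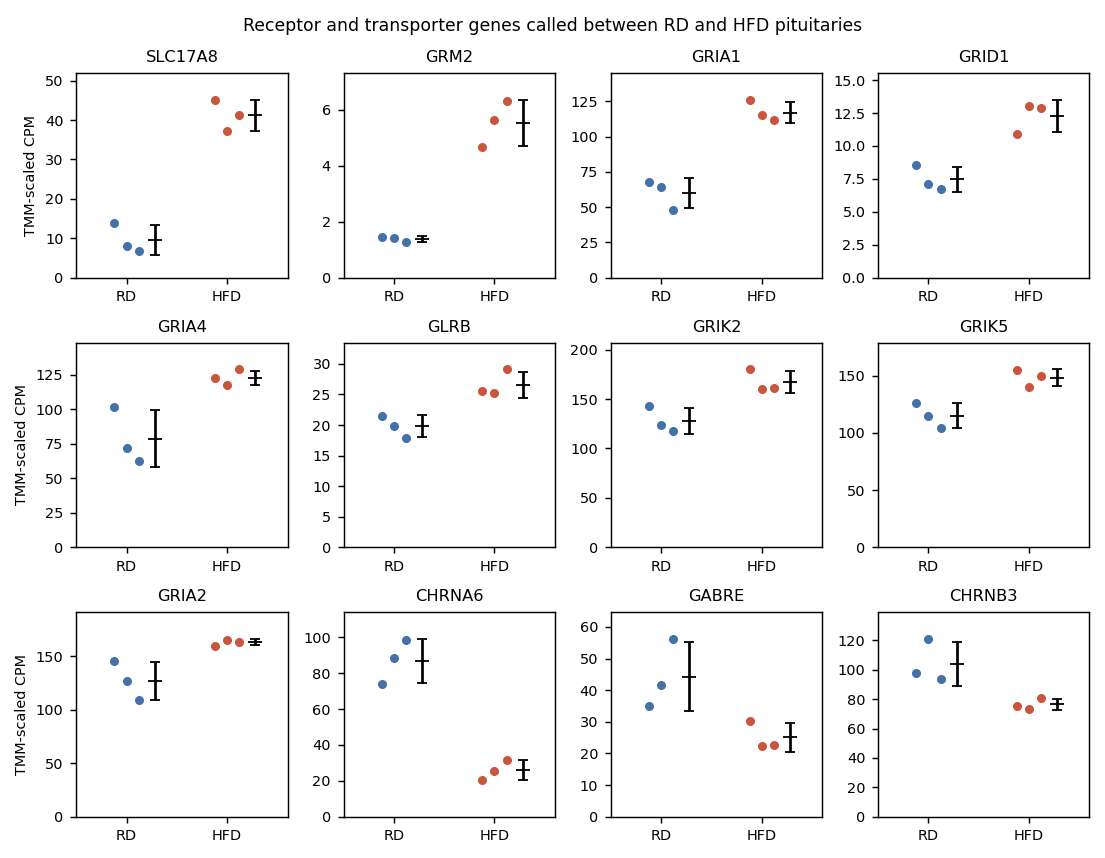
TMM-scaled CPM of the 12 called genes in each library (points, 3 RD and 3 HFD), with the mean and SD of each group beside them and axes from 0. The first 9 panels are the genes called higher in HFD, from SLC17A8 to GRIA2, and the last 3 the genes called lower, and the groups do not overlap in any panel.

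For vesicular glutamate transporters, which fill vesicles with glutamate, 1 of 3 genes rose. SLC17A8 (VGLUT3) rose from 13.8, 7.94 and 6.65 CPM in RD to 45.1, 37.3 and 41.2 CPM in HFD, a log2 change of 2.12 ± 0.23 (adjusted p = 0.00122). SLC17A6 (VGLUT2) was at 16.5, 14.4 and 31.0 CPM in the RD libraries and 14.2, 12.2 and 15.8 CPM in HFD, with RD replicate 3 far above the rest, and was not called (-0.56 ± 0.26, adjusted p = 0.209). SLC17A7 (VGLUT1) was at 12.1, 7.75 and 5.95 CPM in the RD libraries and 13.5, 12 and 13.4 CPM in HFD. It was not called (0.59 ± 0.23, adjusted p = 0.133), except without RD replicate 1 (0.91, adjusted p = 0.0148). Per kb, SLC17A8 made up 26.8%, 21.7% and 12.9% of the 3 transporters in the RD libraries and 54.7%, 53.2% and 51.2% in the HFD libraries, while SLC17A6 went from 50% ± 16.8 to 20.6% ± 1.6. For both shares the exact permutation p was 0.1, the smallest possible. The RD mean of SLC17A6 owes much to RD replicate 3 at 68.8%, and in RD replicate 1 SLC17A7 (36.9%) and SLC17A6 (36.4%) were nearly equal. SLC17A7 held 29.5% ± 9.88 and 26.3% ± 0.596 (exact permutation p = 0.7).

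SLC17A8 lies on the minus strand of chromosome 10 (89574020 to 89621253). The next gene beyond its 3′ end, the bile acid receptor gene NR1H4, on the same strand and 40434 bases away, rose by nearly the same amount, 2.15 ± 0.34 (adjusted p = 0.00548). It was at 2.81, 1.11 and 1.16 CPM in the RD libraries and 7.70, 6.52 and 8.38 CPM in HFD. RD replicate 1 was the highest RD library for NR1H4, as for all 9 examined genes called higher, SLC17A8 among them. On the 5′ side, SCYL2, 17467 bases away, was at 91.2, 99.2 and 194 CPM in the RD libraries and 85.8, 82.7 and 68.9 CPM in HFD, a difference that was not called (-0.69 ± 0.24, adjusted p = 0.102). Without RD replicate 1 SCYL2 was called (-0.90, adjusted p = 0.0344), and without RD replicate 3 its log2 change was -0.27. Whether reads run from one gene into the next cannot be seen in gene counts and was not tested.

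Genes that make and store GABA did not pass the test. Of the 2 glutamate decarboxylases, GAD2 was the one with appreciable counts, at 33.9, 26.2 and 48.1 CPM in the RD libraries and 35.5, 33.4 and 37.2 CPM in HFD (-0.03 ± 0.18, 95% interval -0.44 to 0.38). GAD1 had between 2 and 8 counts per library and was not tested. SLC32A1, which loads GABA and glycine into vesicles, was at 1.28, 0.716 and 1.16 CPM in the RD libraries and 1.67, 1.36 and 0.541 CPM in HFD, and an antisense gene covers 24.9% of its exons.

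GABA-A receptors had the most genes, 19 in the table and 16 tested, of which GABRE alone was called. Most GABA-A channels combine alpha, beta and gamma subunits, and epsilon, which GABRE encodes, can take the place of gamma. GABRE was at 34.9, 41.7 and 56.2 CPM in the RD libraries and 30.3, 22.3 and 22.8 CPM in HFD, so that the gap between the groups was small beside their spread. The log2 change was -0.82 ± 0.18 (adjusted p = 0.0206), and the call was lost without HFD replicate 2 or HFD replicate 3 (adjusted p up to 0.106). The gene stands in a cluster on the X chromosome with GABRA3 and the theta subunit gene GABRQ. GABRQ was at 1.90, 1.63 and 3.24 CPM in the RD libraries and 1.32, 0.543 and 1.22 CPM in HFD (-1.14 ± 0.42, adjusted p = 0.114, not called), and GABRA3 was not called (-0.01 ± 0.28, 95% interval -0.63 to 0.60).

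None of the other abundant GABA-A subunits was called. GABRB1 was at 157 ± 18.4 and 175 ± 14.1 CPM (SD, n = 3 each), with a 95% interval of the log2 change from -0.06 to 0.37. Of the alpha subunits, GABRA4 was the most abundant per kb, and its log2 change was -0.37 ± 0.14 (adjusted p = 0.138). It was called without RD replicate 3 (-0.50, adjusted p = 0.0256) and in no other setting. GABRA2 (-0.30 ± 0.19) and GABRB2 (-0.14 ± 0.18) were not called. GABRG3 was at 1.75 ± 0.470 and 3.26 ± 0.486 CPM (0.90 ± 0.29, adjusted p = 0.0824, not called). Of the rarer subunits, GABRA5, GABRD, GABRG1, GABRR1 and GABRR2, were below 6 CPM in every library, and their log2 changes lay between -0.24 and 0.85 with none called.

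GABA-B receptors are pairs of GABBR1 and GABBR2. GABBR1 was at 92.8, 91.0 and 95.5 CPM in the RD libraries and 88.7, 86.9 and 92.8 CPM in HFD, which bounds its log2 change between -0.21 and 0.09. GABBR2 was at 17.1 ± 3.98 and 15.9 ± 1.96 CPM (-0.11 ± 0.18). Neither was called.

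Of the 4 tested glycine receptor genes the beta subunit gene GLRB rose. This subunit anchors the receptor to the scaffold gephyrin. GLRB was at 21.5, 19.9 and 17.9 CPM in the RD libraries and 25.6, 25.3 and 29.1 CPM in HFD, without overlap (0.43 ± 0.11, adjusted p = 0.0405). It was the least stable of the calls, and on leaving out 1 library at a time it held only without RD replicate 1 (adjusted p up to 0.17 in the other 5 fits). The alpha subunit gene GLRA2, the most abundant of the class per kb, was at 25.0, 26.4 and 17.6 CPM in the RD libraries and 25.5, 30.2 and 35.4 CPM in HFD (0.40 ± 0.17, adjusted p = 0.161, not called). GLRA4 (-0.11 ± 0.15) and GLRA1 (-0.17 ± 0.27) were not called. GLRB lies next to GRIA2 among the examined genes, on the same strand of chromosome 3 with 40763 bases between them, and both were called higher.

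Nicotinic receptor genes included the largest fall. CHRNA6, an alpha subunit best known from dopamine neurons and the retina, was at 73.8, 88.3 and 98.3 CPM in the RD libraries and 20.5, 25.3 and 31.6 CPM in HFD. Every RD library was more than 2-fold above every HFD library. The log2 change was -1.75 ± 0.16, which is 3.36-fold lower in HFD (adjusted p = 0.000634), and over the 16 other settings it stayed between -1.92 and -1.61. CHRNB3, an accessory subunit that joins receptors containing CHRNA6, fell less, from 97.8, 121 and 93.8 CPM to 75.5, 73.3 and 80.7 CPM (-0.45 ± 0.10, adjusted p = 0.0242). Its call was lost without RD replicate 2 or any 1 HFD library (adjusted p up to 0.104).

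These genes are neighbours on chromosome 8. CHRNB3 is on the plus strand (27368711 to 27399730) and CHRNA6 on the minus strand (27403212 to 27413944), so that their 3′ ends face each other across 3481 bases. On the other side of CHRNA6, 33725 bases away, the row named POTEG was at 11.4, 9.77 and 6.53 CPM in the RD libraries and 5.20, 5.91 and 5 CPM in HFD, just short of a call (-0.78 ± 0.22, adjusted p = 0.0532). It was called by DESeq2 (0.0198), with no filter (0.0471) and without RD replicate 3 (-0.98, adjusted p = 0.00839). The 3 neighbouring genes were thus each lower in all HFD libraries than in any RD library, by different amounts.

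The partner beta subunit CHRNB2 did not follow. It was at 75.4, 75.9 and 83.6 CPM in the RD libraries and 85.6, 87.3 and 78.5 CPM in HFD, and its 95% interval of -0.08 to 0.27 lies wholly above that of CHRNA6 (-2.10 to -1.40). The gene Adar on the opposite strand covers 16.4% of the CHRNB2 exons. CHRNA4, the usual partner of CHRNB2 in brain, was at 14.7, 12.4 and 14.6 CPM in the RD libraries and 20.1, 23.9 and 16.1 CPM in HFD (0.53 ± 0.16, adjusted p = 0.0625). It was not called in the main test, but it passed by DESeq2 (0.0312), with library size as the only scaling (0.0395) and with upper-quartile scaling. Of neuronal nicotinic transcripts per kb, CHRNA6 held 48.5% ± 3.76 in RD and 22.7% ± 3.59 in HFD, CHRNB2 15.3% ± 1.12 and 25.9% ± 2.72, and CHRNA4 4.79% ± 0.764 and 10.9% ± 2.43 (SD, n = 3 each; exact permutation p = 0.1 for each, the smallest possible). A share rises where another falls, so these values are not independent of each other.

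CHRNA7, CHRNA2, CHRNB4 and CHRNA9 were below 5 CPM in every library and were not called, with log2 changes from -0.88 to 0.82. Of the subunits of the muscle receptor, CHRNB1 was at 21.3, 18.3 and 20.4 CPM in the RD libraries and 18.5, 20.4 and 19.2 CPM in HFD (-0.05 ± 0.11). CHRNA1 (0.62 ± 0.27) and CHRNE (0.76 ± 0.36) were below 4 CPM, did not overlap between groups and were not called. Skeletal muscle markers were near 0, with a sum of 1.25 to 3.55 CPM over 6 genes in all libraries.

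The 13 genes not tested were GRIN2B, GRM4, GRM6, GABRA6, GABRP, GABRR3, GLRA3, CHRND, CHRNG, CHRNA10, CHRNA3, CHRNA5 and GAD1. None had more than 17 counts in a library. GABRA6, an alpha subunit known from cerebellar granule cells, had 0 counts in all 6 libraries, which allows up to between 0.166 and 0.211 CPM in each for counting error alone. That limit takes counts as independent, and would be 2 times as high if both mates of each read pair were counted.

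Receptors work with auxiliary subunits, scaffolds, transporters and enzymes, and a list of 86 such genes was examined beside them. Of these, 77 were tested and 14 (18.2%, against 10.5% of all genes) were called, 9 higher and 5 lower, with a median log2 change of -0.01. Of 14 tested auxiliary subunits of AMPA and kainate receptors, 2 rose and 1 fell. Among 20 tested glutamate receptor scaffolds and ligands, 2 rose and 2 fell. No gene was called among the 10 of glutamate uptake and metabolism, the 6 tested of GABA and glycine uptake and metabolism, and the 3 tested of acetylcholine handling. The genes for acetylcholine synthesis and vesicular loading, CHAT and SLC18A3, had 0 counts in all libraries, with the same limit, and the same reserve about mates, as for GABRA6.

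The partner genes called higher included CBLN1, SLC12A5 and CACNG5. CBLN1, the cerebellin that binds delta receptors, was at 15.4, 14.3 and 11.2 CPM in the RD libraries and 31.5, 29.9 and 35.6 CPM in HFD (1.25 ± 0.14, adjusted p = 0.00127). It rose 2.37-fold beside the 1.64-fold rise of GRID1. The gephyrin gene GPHN was at 101 ± 4.40 and 86.6 ± 0.451 CPM and was not called (-0.22 ± 0.07, adjusted p = 0.0672). SLC12A5 (KCC2), which lowers chloride in neurons so that GABA inhibits, was at 48.2 ± 6.94 and 75.9 ± 5.38 CPM (0.66 ± 0.11), while the chloride importer SLC12A2 was not called (-0.17 ± 0.08). CACNG5, an AMPA receptor auxiliary subunit, was at 4.41, 3.65 and 2.08 CPM in the RD libraries and 9.78, 10.5 and 8.04 CPM in HFD (1.49 ± 0.26). The calls of CBLN1, SLC12A5 and CACNG5 held in all 16 other settings.

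Among the partner genes that fell, KCTD12, an auxiliary subunit of GABA-B receptors, went from 75.3, 71.0 and 64.3 CPM to 40.6, 42.5 and 45.2 CPM (-0.72 ± 0.09, adjusted p = 0.00191). Another of that class, KCTD8, was called in the opposite direction (1.13 ± 0.25), at 2.88 ± 0.910 and 6.33 ± 0.253 CPM. Per kb KCTD8 stood at 0.855 in RD and 1.88 in HFD, against 11.6 and 7.06 CPM per kb for KCTD12. The AMPA receptor scaffold GRIP1 was at 78.4 ± 2.16 and 56.7 ± 6.77 CPM (-0.47 ± 0.09), and the postsynaptic scaffold DLGAP3 at 97.4 ± 17.4 and 65.1 ± 2.34 CPM (-0.58 ± 0.12). NETO2, an auxiliary subunit of kainate receptors, was at 18.7, 20.4 and 42.0 CPM in the RD libraries and 10.3, 13.3 and 11.5 CPM in HFD (-1.21 ± 0.28), with RD replicate 3 apart, as for SLC17A6. Leaving out any HFD library ended the calls of NETO2 and DLGAP3 (adjusted p up to 0.114), and leaving out HFD replicate 1 or 3 that of GRIP1. For NETO2 limma-voom gave an adjusted p of 0.054.

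**Figure D5:**
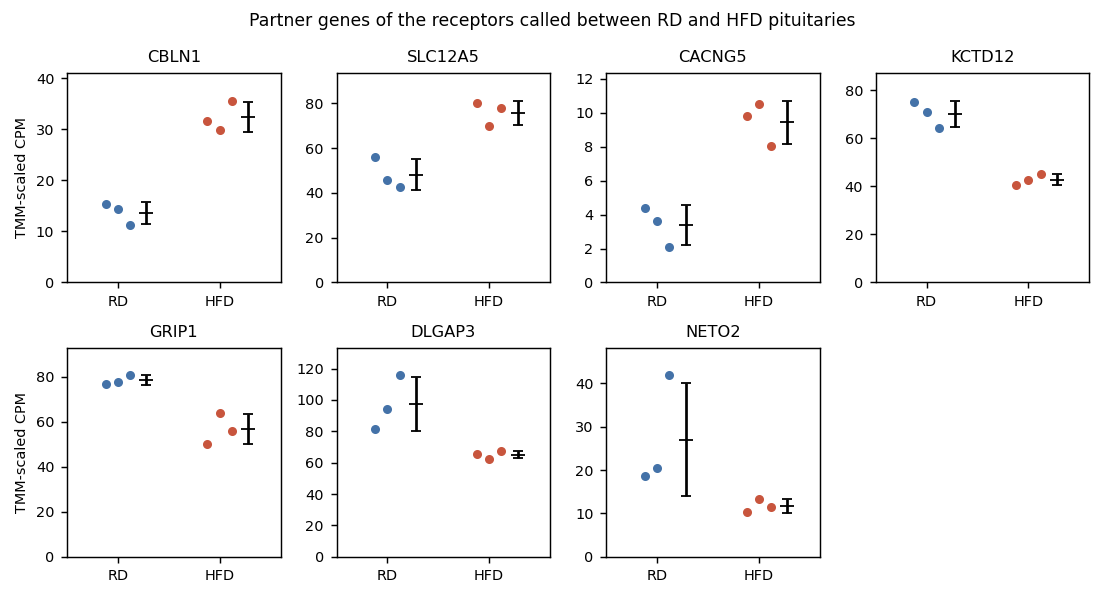
TMM-scaled CPM of 7 partner genes in each library (points, 3 RD and 3 HFD), with group mean and SD and axes from 0. The first 3 panels are genes called higher in HFD and the other 4 genes called lower, where the RD value of NETO2 at 42.0 stands apart.

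Libraries within a group also differed in an ordered way. In all 9 genes called higher in HFD, RD replicate 1 was the highest and RD replicate 3 the lowest RD library. In HFD no library led in more than 4 of the 9. RD replicate 1 had the largest sum of corticotroph and melanotroph markers among RD libraries (10000 CPM, against 5920 and 5940) and of pituicyte and astroglial markers (353 against 254 and 279). HFD replicate 1 was low in both sums (6150 and 177 CPM, against 11800 to 14300 and 294 to 297 in the other HFD libraries). Among the 9 genes called higher, it was the highest HFD library for GRIA1, GRIK2, GRIK5 and SLC17A8. For GRM2 (4.65 CPM), GRIA2 (159 CPM) and GRID1 (10.9 CPM) it was the lowest HFD library. It was the lowest of all 6 libraries for GRIA3, GRIK1 and GRM8.

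Markers of some cell types moved with the groups. Summed somatotroph markers were 59600 to 72400 CPM in RD and 37000 to 40000 CPM in HFD, with 0 higher and 2 lower of 3 tested, and gonadotroph markers 1350 to 1510 and 1020 to 1110 CPM, with 1 higher and 3 lower of 4. Lactotroph markers were 13800 to 15300 and 9630 to 12300 CPM, with PRL lower (adjusted p = 0.013) of 2 tested. Thyrotroph markers were at 227 to 313 and 440 to 474 CPM, with 2 of 3 higher. Oligodendrocyte markers were 69.7 to 81.2 CPM in RD and 78.0 to 210 CPM in HFD, with 2 of 5 higher and the largest value in HFD replicate 3. Without that replicate SLC17A8, GRM2, GRIA1 and CHRNA6 were still called. The sum of the 10 hypothalamic neuron markers was 84.6 to 116 CPM in RD and 118 to 132 CPM in HFD without overlap. SLC12A5 alone was called of 8 tested. Without SLC12A5 the sum of the other 9 markers was 38.7 to 60.1 CPM in RD and 37.7 to 54.1 CPM in HFD, and the groups overlapped. STMN2, a neuronal microtubule regulator, was at 2.20 to 3.52 and 4.28 to 4.87 CPM without overlap, and was not called (0.61 ± 0.24, adjusted p = 0.139). AVP (0.47 ± 0.41) and AGRP (0.17 ± 0.20) were not called either. OXT (-0.40 ± 0.47), NEFM (-0.38 ± 0.27), NEFL (-0.18 ± 0.22) and RBFOX3 (-0.04 ± 0.28) had negative changes and were not called. Stem and folliculostellate markers were 112 to 122 and 128 to 144 CPM, with ALDH1A2 higher (0.43 ± 0.09) of 5 tested. ALDH1A2 itself was at 45.6 to 55.6 CPM in RD and 65 to 73.4 CPM in HFD. SOX2 (-0.03 ± 0.11), SOX9 (-0.04 ± 0.15), FXYD1 (0.15 ± 0.21) and S100B (0.63 ± 0.56) were not called. Of 6 tested corticotroph and melanotroph markers CRHR1 was higher (0.36 ± 0.09). The others were not called, with log2 changes on both sides of 0, from -0.20 ± 0.21 (AVPR1B) to 0.58 ± 0.29 (POMC). The sum of these markers overlapped, at 5920 to 10000 CPM in RD and 6150 to 14300 CPM in HFD. Pituicyte and astroglial markers had 0 of 8 called. The part of these cell types in the changes of the receptor genes was not tested.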

How the data were processed

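For 6 pituitary libraries (3 RD, 3 HFD) the authors deposited raw counts of reads for each gene, as whole numbers. Per the labels' protocols RNA was selected with oligo-dT, and per the submitters' processing notes the build was mm10. The sources used here do not name the aligner, counter or annotation. Rows are upper-case symbols. All 74 examined genes matched a single GENCODE M21 gene, which gave coordinates and merged exon length. Among counts of 1 to 10, 64.0% to 67.0% were even, so both mates of a pair may have been counted. Errors therefore come from the libraries.

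The test was edgeR 4.0.16 under R 4.3.3 (TMM, filterByExpr with minimum count 10 and minimum total 15, quasi-likelihood test, two-sided, Benjamini-Hochberg over all 13873 tested genes, threshold 0.05). The standard error is the log2 change over the square root of F. No 2 libraries were identical. Alternatives were other scalings and filters, DESeq2 1.42.0, limma-voom (limma 3.58.1), halved counts, a replicate block, other thresholds and each library left out.

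Genes given in every library are the called ones, the most abundant of each class per kb, the nearest tabled neighbours of those called at 2-fold, and up to 4 partner genes in each direction. A few more, chosen after their values were seen, are given likewise (SLC17A6, SLC17A7, CHRNA4, CHRNB2, GRIK3, GABRQ and GRM4). Exceptions are TEX264, SLC12A5, GRIP1 and DLGAP3, given as mean and SD, and IQCF6, given by its total count. Some genes that these rules name are counted but not reported here. The genes and lists were chosen with earlier results of these data known. Two-sided exact permutation tests were run for 22 class shares, and none can go below 0.1, before or after adjustment.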

Additional observations from a re-analysis of the deposited data

How the results depend on the processing

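The 12 called genes kept their direction in all 16 other settings, and all 12 calls held under the other scalings, filters and tests and with halved counts. Leaving out 1 library gave 3 to 10 genes higher and 1 to 4 lower, where 9 and 3 were found with all. Over all genes the count was 431 to 1523 in place of 1453, and over the partner genes 4 to 12 higher and 1 to 7 lower in place of 9 and 5. The samples share only replicate numbers (correlations of same-numbered libraries -0.13, 0 and -0.10). With the replicate block 808 genes were called in all, with 6 examined genes higher and 2 lower. CHRNB3 (adjusted p = 0.0577), GLRB (0.0986), GRIA2 (0.0674) and GRID1 (0.0589) were not called there. At a threshold of 0.01, 412 genes were called, with 3 examined genes higher and 1 lower and 5 partner genes higher and 1 lower. At 0.10, 2343 were called, with 8 partner genes lower. Scaling by library size alone put 72.5% of all calls on the HFD-higher side, where TMM put 56.0%, and 10 examined genes were higher and 3 lower. For SLC32A1, near the filter, the 95% interval of the log2 change was as wide as -0.85 to 1.18.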
